A study of Mus musculus with 2 samples.

Results

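Protein-coding genes whose annotated promoters lie far apart were examined in the open chromatin of the mouse ovary. On GRCm38 with GENCODE gene models, the transcription starts of each gene's protein-coding transcripts were joined into start groups wherever neighbouring starts lay within 1 kb. A gene was kept when its most upstream and most downstream groups lay over 10 kb apart. Of 21866 genes with a protein-coding transcript, 3751 met this rule, which is 17.2%. They held 10417 start groups, of which 3751 were the first, meaning the most upstream in the direction of transcription, and 6666 were later ones. A start group counted as open when a DNase I peak lay within 500 bp of one of its starts in both libraries. The peaks of the 2 libraries did not have to overlap, so a pair of values can come from neighbouring sites. How often this was so was not counted. The choice of genes used the annotation alone and no measured value.

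Ovary tissue of female mice aged 36 days was profiled by DNase-seq, in which DNase I cuts DNA that is not wrapped in nucleosomes. Both mice were B6CASTF1/J, an F1 cross between C57BL/6J and CAST, and neither a treatment nor an engineered allele is given in the labels. The 2 libraries are biological replicates 1 and 2 of 1 group, and each was taken as 1 animal, since the labels number the females differently although they share a donor entry. With 1 group of 2 libraries there is no contrast and no test, and start groups of 1 gene are not replicates of each other.

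A gene with alternative promoters begins its transcripts at separate first exons, so that one locus can be read under different controls in different cells. When the later start lies beyond the first coding exon, the protein can begin with another stretch of amino acids, and when it lies before that exon only the leader of the messenger RNA changes. Promoters rich in CpG dinucleotides are known to be open in most tissues, while promoters poor in CpG are more often open in particular cell types.

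The sequences of 4 genes show the range found between the first and a later start of the same gene. Each line is the 200 bases just before the most upstream start of a group, 5′ to 3′, on GRCm38, in lower case with every CG dinucleotide in capitals. For each gene the first group stands above the later group with the highest peak value. Por encodes the reductase that passes electrons to microsomal cytochrome P450 enzymes, Tollip an adaptor of Toll-like receptor signalling, Limk1 a kinase of the actin regulator cofilin, and Nr4a1 an orphan nuclear receptor induced early by hormones.
Por, first start, chr5:135669833-135670032, plus strand: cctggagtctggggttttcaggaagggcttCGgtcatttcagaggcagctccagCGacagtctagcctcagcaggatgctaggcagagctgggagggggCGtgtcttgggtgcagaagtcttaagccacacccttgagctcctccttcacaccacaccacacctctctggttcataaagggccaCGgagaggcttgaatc
Por, later start, chr5:135688836-135689035, plus strand: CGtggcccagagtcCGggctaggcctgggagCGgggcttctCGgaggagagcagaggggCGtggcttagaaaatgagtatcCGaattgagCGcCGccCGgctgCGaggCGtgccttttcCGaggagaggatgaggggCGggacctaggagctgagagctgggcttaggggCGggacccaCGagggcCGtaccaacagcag
Tollip, first start, chr7:141918508-141918707, minus strand: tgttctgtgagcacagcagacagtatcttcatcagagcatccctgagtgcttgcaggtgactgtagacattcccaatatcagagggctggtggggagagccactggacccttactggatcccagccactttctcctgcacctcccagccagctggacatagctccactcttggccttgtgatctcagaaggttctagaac
Tollip, later start, chr7:141902488-141902687, minus strand: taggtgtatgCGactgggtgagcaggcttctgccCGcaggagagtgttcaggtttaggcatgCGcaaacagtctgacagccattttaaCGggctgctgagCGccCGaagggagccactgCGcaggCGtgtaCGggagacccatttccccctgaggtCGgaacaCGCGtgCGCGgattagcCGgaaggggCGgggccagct
Limk1, first start, chr5:134688599-134688798, minus strand: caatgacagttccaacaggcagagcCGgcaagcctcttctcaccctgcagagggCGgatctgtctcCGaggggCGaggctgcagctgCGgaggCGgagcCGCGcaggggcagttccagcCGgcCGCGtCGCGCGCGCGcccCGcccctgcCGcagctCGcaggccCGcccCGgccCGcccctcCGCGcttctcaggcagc
Limk1, later start, chr5:134678249-134678448, minus strand: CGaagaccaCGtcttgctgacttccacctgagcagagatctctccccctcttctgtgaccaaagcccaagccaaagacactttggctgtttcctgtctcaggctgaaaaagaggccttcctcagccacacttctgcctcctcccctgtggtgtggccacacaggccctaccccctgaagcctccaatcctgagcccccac
Nr4a1, first start, chr15:101254069-101254268, plus strand: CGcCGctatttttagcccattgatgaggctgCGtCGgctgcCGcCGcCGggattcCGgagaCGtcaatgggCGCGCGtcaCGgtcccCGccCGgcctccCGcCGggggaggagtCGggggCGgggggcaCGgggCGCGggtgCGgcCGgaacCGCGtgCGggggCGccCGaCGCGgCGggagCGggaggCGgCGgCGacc
Nr4a1, later start, chr15:101266646-101266845, plus strand: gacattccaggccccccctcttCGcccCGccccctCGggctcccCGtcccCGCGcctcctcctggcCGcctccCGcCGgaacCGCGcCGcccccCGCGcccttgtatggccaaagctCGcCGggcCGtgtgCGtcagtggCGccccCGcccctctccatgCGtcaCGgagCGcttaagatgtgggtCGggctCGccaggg
The first starts of Por and Tollip are preceded by 4 and 0 CG dinucleotides and the later ones by 16 each. In Limk1 the order is the other way round, with 24 at the first start and 2 at the later one. Both Nr4a1 starts lie in CG-dense sequence, with 36 and 25.

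In Por, Tollip and Limk1 the start with more CG dinucleotides had the higher peak, and in Nr4a1 the one with fewer. A peak value below is the deposited signal of the highest peak within 500 bp, and a median peak had a value of 0.808 in replicate 1 and 0.648 in replicate 2. Where values are given as a pair, replicate 1 comes first. The first start of Por had a peak in replicate 1 alone, at 0.593, while the start 19.0 kb downstream reached 18.7 in replicate 1 and 9.11 in replicate 2. A Por start between them, 4.55 kb from the first and not printed above, was also open, at 1.93 and 1.61. Tollip had no peak at its first start, and 22.7 and 9.95 at the start 16.0 kb downstream. In Limk1 the first start was the high one, at 18.6 and 9.41, against 0.515 and 0.386 at the start 10.35 kb downstream. Nr4a1 was open at both starts, with 3.39 and 1.44 at the first and 11.9 and 5.26 at the start 12.6 kb downstream. Replicate 1 gave the higher value at most of these sites, so ratios between starts were taken within a library. Over all open groups the median log2 ratio of replicate 2 over replicate 1 was -0.94 at first and -0.66 at later starts.

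Being open at the first start alone was the most common pattern among genes with far-apart promoters. Its share was 52.1%, and 39.5% once transcripts annotated with an incomplete 5′ end were left out. At least 1 start group was open in 3201 of the 3751 genes, or 85.3%, against 65.5% of all protein-coding genes and 63.1% of genes with 1 start group. Having more start groups gives a gene more chances of an open one, so these shares are not directly comparable. The first group alone was open in 1955 genes (52.1%), exactly 1 later group in 330 (8.80%), several groups in 916 (24.4%) and none in 550 (14.7%). Of the 916 genes with several open groups, 841 included the first, and in 75 the open groups were all later ones. The open groups of such a gene need not lie over 10 kb from each other. Every annotated group was open in 341 genes. The classes were close in each animal taken alone. Replicate 1 alone gave 1905, 310, 1052 and 484 genes, replicate 2 alone gave 1890, 317, 1036 and 508, and 3403 genes fell in the same class in each library alone.

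The number of annotated starts moved with the class. Among 2058 genes with 2 groups, 60.8% were open at the first alone and 14% at both, while among 694 genes with 4 or more groups 31.7% were open at the first alone and 50.6% at several. Few genes had many open starts: 733 had 2, 143 had 3 and 40 had 4 or more. The genes with most open groups were Pde4d and Plec, both with 7, then Abr with 6 of 8. Another 9 genes had 5, among them Cpeb3 and Nedd4l, whose values were the highest of those 9. One peak can open 2 neighbouring groups, and in 7 of the 916 genes with several open groups 2 of them had the same highest peak in a library. Cpeb3, which binds messenger RNA, had 0.671 and 0.883 at its first start and 7.41 and 3.79 at the start 1.09 kb on, which lies within 1 kb of a start of March5. Its order turned round, to a log2 ratio of -1.36, when starts within 2 kb were merged, and to -2.33 with basic transcripts or those of support level 1. Its last 2 open groups had the same peak in replicate 2. Nedd4l, a ubiquitin ligase, was highest at its first start, at 7.87 and 4.17, where the peaks of the 2 libraries did not overlap. The 126 genes on the X chromosome had a lower share open at the first group alone than autosomal genes, at 34.1% against 52.7%, and a higher share with none open, at 30.2% against 14.1%. Shares over all X-linked and all autosomal coding genes were not taken. The difference is therefore not shown to be particular to genes with far-apart promoters.

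**Figure D1:**
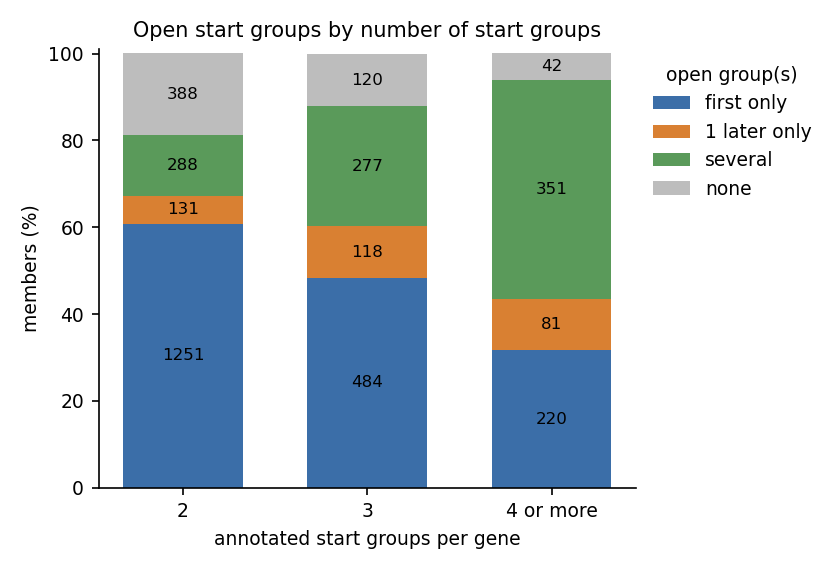
Share of genes (vertical axis, %) whose open start groups were the first only, 1 later only, several or none, for genes with 2, 3 or 4 or more annotated start groups (horizontal axis), with the number of genes written in each block. The several class takes 288 of the genes with 2 groups and 351 of those with 4 or more.

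A first start was open far more often than a later one. Of the first groups 2796 were open, or 74.5%, against 62.3% of the first groups of all protein-coding genes. Of the later groups 1561 were open, or 23.4%, against 49.3% of all start groups of coding genes. Later starts were still open more often than the sequence around them. Of the positions between a member's first and last start that lay over 1500 bp from any coding start, 3.0% lay within 500 bp of a peak in both libraries, and over the whole genome 3.19%. In the 3637 genes whose several groups lie within 10 kb, 46.8% of first and 21% of later groups were open.

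Open first starts also had higher values than open later ones. The median value was 6.60 in replicate 1 and 3.43 in replicate 2 at open first groups, close to the 6.70 and 3.66 of open genes with 1 start group. At open later groups it was 2.03 and 1.42. First groups that were the only open one had medians of 7.65 and 3.78, and first groups open beside others had 4.31 and 2.27. A later group that was the only open one had 3.26 and 1.83. Footprints, the short protected stretches that mark bound protein within an open site, followed the same order, with medians of 8 and 7 within 500 bp of open first groups and 5 in each library at open later groups.

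CpG content separated open from closed starts more than their order did. The CpG ratio is the observed over the expected number of CG dinucleotides in the 500 bp to each side of the most upstream start of a group. At 3.43% of open first and 4.10% of open later groups the highest peak lay over 500 bp from that start in a library, at another start of the group. Its median was 0.754 at open first groups, 0.470 at open later groups, 0.218 at first groups that were not open and 0.232 at later groups that were not. Where the ratio was above 0.8, 98.7% of first and 96.9% of later groups were open. Where it was at most 0.2, 10.3% and 8.29% were. With only peaks within 500 bp of the most upstream start counted, these shares were 98.5 and 96.5%, and 9.24 and 7.86%. First and later starts differed most in the middle range from 0.4 to 0.6, with 80.2% and 46.0% open. In that range 59.9% of later groups were open once those with incomplete 5′ ends alone were left out.

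**Figure D2:**
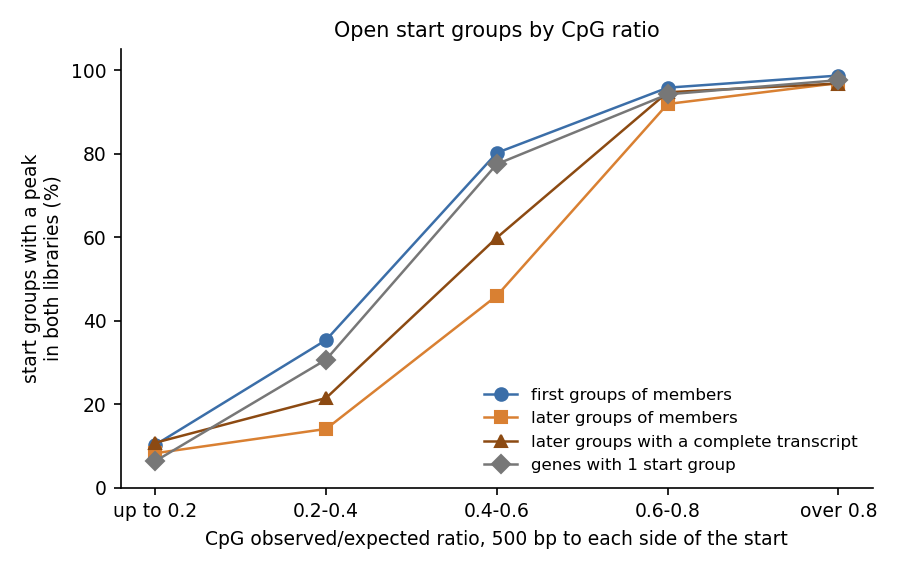
Share of start groups with a peak in both libraries (vertical axis, %) by CpG observed over expected ratio (horizontal axis), for first groups, later groups, later groups with a complete transcript, and genes with 1 start group. Above a ratio of 0.6 each line lies at 91.9% or higher, and the lines for first and later groups lie furthest apart between 0.4 and 0.6.

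The annotation of a later start also moved with whether it was open. GENCODE marks transcripts whose 5′ end is incomplete, and such a start may not be a true one. Later groups with at least 1 complete transcript were open in 1413 of 4169 cases (33.9%), and groups with incomplete transcripts alone in 148 of 2497 (5.93%). A later start lying in an intron of the gene's other transcripts was open in 38.1% of 3514 cases, and one lying in an exon in 6.88% of 3126. Groups whose transcripts use another start codon than the first group, and so can give another protein start, were open in 40.8% of 1960 cases, against 28.6% of 2102 groups that share the first group's start codon. By distance from the first start, later groups with a complete transcript were open in 40.3% of cases within 10 kb, 28.7% at 10 to 25 kb, 30.8% at 25 to 50 kb, 33.8% at 50 to 100 kb, 42.3% at 100 to 200 kb and 39.9% beyond, with no steady trend.

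Sequence motifs were counted as a further description. TATAAA, the core of the TATA box, searched on both strands in the 50 bp before the most upstream start of a group, was found at 0.858% of open first groups, 4.29% of first groups that were not open, 1.22% of open later groups and 2.82% of later groups that were not. It was found at 3.64% of all coding start groups. CAAGGTCA, a sequence that the ovarian NR5A receptors among others can bind, was searched on both strands within 250 bp of that start. It was found at 1.57% of open first, 4.19% of other first, 2.82% of open later and 3.06% of other later groups. The share over all coding start groups was 2.45%. Neither motif contains the other, and a start can hold both. A match is a run of letters and does not show a bound factor.

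In the 841 genes open at the first and at a later start, neither end was always the stronger. The highest later group could lie within 10 kb of the first, and in how many of these genes it did was not counted. Over all members, 256 of the 1561 open later groups lay within 10 kb of the first. The first group was higher in both libraries in 485 genes, the highest later group was higher in both in 298, the order differed between libraries in 55, and 3 had equal values in a library. The median log2 ratio of the highest later over the first group was -0.69, with -0.76 in replicate 1 and -0.56 in replicate 2 (SD 0.14, n = 2), and quartiles of -2.21 and 0.87. Taking the highest of several later groups favours the later side. In the 288 genes with just 2 groups, both open, where no such choice arises, the median was -0.84. Large differences were common: the first start was over 4 times higher in both libraries in 170 genes, a later one in 79, and the values lay within 2 times of each other in 225.

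**Figure D3:**
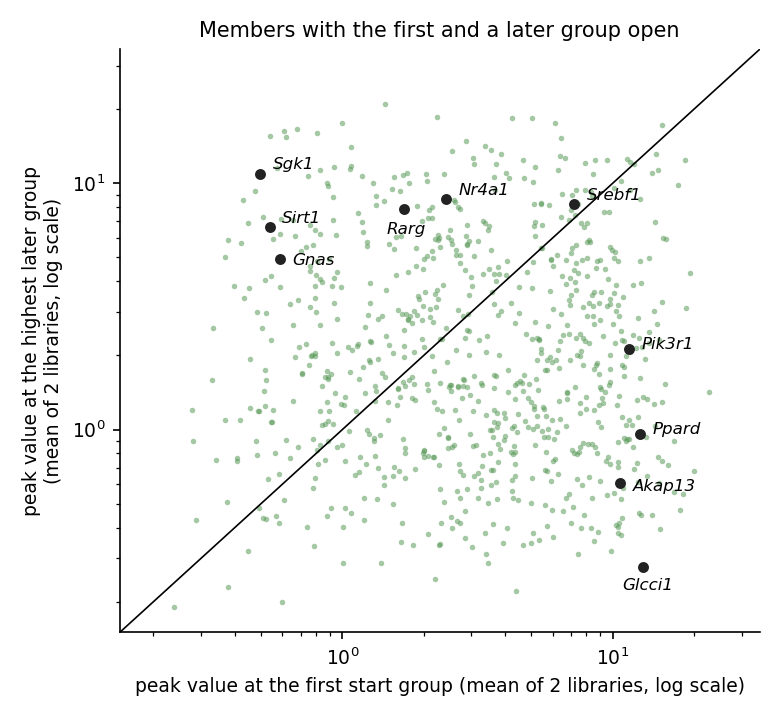
Peak value at the first start group (horizontal axis) against that at the highest later group (vertical axis), both as the mean of 2 libraries on log scales, for the 841 genes open at both, with the diagonal marking equal values and 10 genes named. Points spread widely on both sides of the diagonal, from Sgk1 far above it to Glcci1 far below.

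CpG content moved with the order here too. The later start had the higher CpG ratio in 174 of the 298 genes in which it was the higher peak, and in 52 of the 485 in which the first was. Both starts had a ratio above 0.6 in 177 genes, the first alone in 389, the later alone in 129 and neither in 146. The highest later start used another start codon than the first in 423 genes and the same one in 316, and for 102 it was not annotated.

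Wide gaps in favour of a later start were found in Tpmt, Xrcc6, Ruvbl2 and Sgk1. Xrcc6, which encodes a subunit of the Ku complex of DNA end joining, had 0.515 and 0.720 at the first start against 19.3 and 11.6 at the start 27.7 kb downstream, a log2 ratio of 4.64. In each of them the first start had a small peak and the later one a peak among the high values of the library. In Tpmt and Ruvbl2 the high start lay just 1.39 and 3.39 kb from the first, with log2 ratios of 4.75 and 4.61. In 3 of these 4 genes another coding gene starts within 1 kb of the high group, Kdm1b for Tpmt, Desi1 for Xrcc6 and Gys1 for Ruvbl2, and the peak cannot be told apart from that of the neighbour. The opposite gap was widest in Glcci1 (log2 -5.55), Atp8a1 (-5.24), Dcaf6 (-5.24), Ctnna3 (-5.05) and Limk1 (-4.96). A start of Mpc2 lies within 1 kb of the first start of Dcaf6, whose later group rested on incomplete transcripts alone. In Glcci1 the later start lay just 1.63 kb from the first, at 0.254 and 0.301, and the peaks of the 2 libraries did not overlap. Each of these later values lay below the median peak of its library, except that of Ctnna3 in replicate 2 (0.668 against 0.648). Atp8a1, a lipid flippase of membranes, had 20.9 and 8.96 at the first start and 0.436 and 0.353 at the start 31.6 kb downstream.

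Genes open at a single later start were mostly open at the group with the most annotated transcripts. Which transcripts are made in the ovary was not measured, and the other classes were not counted in this way. In 271 of these 330 genes the open group carried the most annotated transcripts of the gene. In 250 the unopened first group rested on 1 annotated transcript, and in 289 the open group had the higher CpG ratio. The open group lay at a median of 19.2 kb from the first, and over 10 kb from it in 252 genes. The first group had a peak in 1 library in 47 genes, and no base with a listed q-value nearby in either library in 271. The highest values of this class were in Usp37, a deubiquitinase, at 26.7 and 13.3, Glo1, the glyoxalase that clears methylglyoxal, at 26.3 and 13.3, and Stag1, a cohesin subunit, at 22.5 and 10.5. Tollip and Tsga10 followed at 22.7 and 9.95, and at 22.7 and 9.08. Another coding gene starts within 1 kb of some of these groups: Cnot9 at the open start of Usp37, Plcd4 at its first start and Dnah8 at the first start of Glo1.

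Among genes open at the first start alone, the highest values were those of Fbh1 at 26.9 and 12.8, Btrc at 26.6 and 12.7, Nup153 at 24.7 and 14.7, Tpst2 at 26.4 and 12, and Kdm6a at 26.3 and 12.1. Btrc encodes an F-box protein that marks beta-catenin for degradation, Nup153 a nuclear pore protein, and Kdm6a a histone demethylase. The first start of Fbh1 lies within 1 kb of a start of Ankrd16. In 924 of the 1955 genes of this class every later start rested on incomplete transcripts alone.

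Just inside the 10 kb limit, Slc38a3, with starts 10002 bp apart, was open at a later start alone (3.27 and 1.56), while Srek1 at 10026 bp (11.1 and 5) and Gclm at 10030 bp (11.9 and 4.06) were open at the first alone. Just outside it, Fpgs at 9960 bp was open at a later start alone (11.5 and 5.73), Vmn1r85 at 9958 bp at none, and Zfpm2 at 9955 bp at the first alone (4.13 and 1.71).

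The libraries were checked against markers of ovarian cells, taking a gene as open when any of its starts was. Starts were open for 6 of 7 granulosa cell markers (not Cyp19a1), 5 of 6 of theca and steroid-producing cells (not Insl3), 3 of 3 of stroma, 2 of 4 of the surface epithelium and 1 of 3 of endothelium. None of 5 oocyte, 3 lymphocyte and 3 macrophage markers was open, while all 3 markers of the neighbouring oviduct were. Of all protein-coding genes 65.5% had an open start, so counts this small do not show which cell types were present. In whole tissue a small peak from few cells cannot be told apart from a small peak in every cell, and a start without a peak may be open in cells too few to be seen. The part of oviduct cells in the values below was not tested.

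The genes were then described by 9 lists of function, which were chosen with earlier results of these data known. Of 23 nuclear receptors, the hormone and lipid sensors that act as transcription factors, 14 had several open groups, 5 the first alone, 3 a later one alone and Hnf4a none. Of their 40 later groups 21 were open, or 52.5%, against 23.4% over all genes with far-apart promoters. Each of the 9 lists lay above that 23.4%, the lowest at 27.6%, so this is not particular to nuclear receptors. Over all later groups with a complete transcript the share was 33.9%, and the lists were not matched for such groups. Among those open at both ends the later start was higher in both libraries in 8 and the first in 4, with a median log2 ratio of 1.33 against -0.69 over all.

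Rarg, the gamma receptor for retinoic acid, gave 1.99 and 1.38 at its first start on chromosome 15 (102257517), 10.9 and 4.85 at the start 11 kb downstream, and 2.05 and 1.70 at 13.9 kb. The middle start was thus the high one, in both libraries. Nr3c1, the glucocorticoid receptor, had no peak at its first start, 8.83 and 5.11 at 28.1 kb, and 1.02 and 0.753 at 32.2 kb. Nr2c2, an orphan receptor expressed in testis and elsewhere, had 7.28 and 2.80 at the first start and 25.8 and 11.1 at a start 1.04 kb further on. Ppard, a receptor for fatty acids, went the other way, with 18.1 and 7.12 at the first start and 1.11 and 0.818 at 39.4 kb.

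Receptors of the ovary that the naming rule did not pick were looked up after their values had been seen. Nr5a2, the granulosa cell receptor needed for ovulation, had no peak at its first start, 2.02 and 1.59 at 6.82 kb, and 2.90 and 1.62 at 10.9 kb. Esr1, estrogen receptor alpha, was open at both starts, with 1.51 and 1.19 at the first and 2.46 and 1.41 at 98.2 kb. Pparg had 3.15 and 1.80 at the first start and 1.65 and 1.32 just 1.34 kb on, while its start at 61.1 kb had a peak in replicate 2 alone (0.458). These values were low beside the 8.83 and 5.11 of Nr3c1.

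Receptors and ligands of ovarian signalling comprised 17 genes, of which 8 were open at the first start alone, 8 at several and 1, Igf2, at none, with 14 of 38 later groups open (36.8%). Tgfbr1, the type I receptor for TGF-beta, was high at its first start alone, at 22.0 and 7.36, and so were Il6st (15.5 and 6.19), Insr (11 and 4.96) and Bmpr1a (10.7 and 3.97). Fgfr2, a fibroblast growth factor receptor, had peaks at all 3 groups. It had 3.26 and 1.76 at the first and 9.46 and 3.49 at the start 2857 kb downstream. That first start lies within 1 kb of a start of Ctbp2, and its peak cannot be told apart from that of the neighbour. The third group, at 0.899 and 0.857, lies in an exon and rests on incomplete transcripts alone. There the peaks of the 2 libraries did not overlap. Prlr, the prolactin receptor, chosen after its values were seen, had low peaks at 3 of 5 groups, with 1.39 and 1.11 at the first, 0.743 and 0.648 at 71.9 kb, and 0.612 and 1.30 at 136.4 kb. The last of these was the one group of Prlr higher in replicate 2.

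Of 31 transcription factors of the gonad and follicle, 15 were open at several groups, 9 at the first alone, 5 at a later one alone, and Trp63 and Erg at none, with 28 of 79 later groups open (35.4%). The first start was higher in both libraries in 10 genes and a later one in 1, with a median log2 ratio of -1.10. Smad4, the shared mediator of TGF-beta signals, was open at its first start alone at 16.3 and 6.79, and so were Tead1 (15.5 and 6.49) and Smad3 (14 and 5.18). Nfia had 14.8 and 7.11 at the first start and 2.81 and 1.79 at 4.87 kb, within 1 kb of a start of E130114P18Rik. At that later Nfia group the peaks of the 2 libraries did not overlap. Crem, a cAMP-response factor, had 12.2 and 7.38 at the first and 1.29 and 2.25 at the group that begins at 56.0 kb, where replicate 2 was the higher. There too the peaks lay over 500 bp from the most upstream start, at another start of the group.

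Gata4 was the gene of that list whose later start was the higher in both libraries, and Runx1 had its open starts far downstream. Both were described after their values were seen. Gata4, a factor of granulosa cell development, gave 1.71 and 1.26 at its first start on chromosome 14 (63271692) and 7.39 and 3.94 at 26.4 kb, with no peak at 58.1 kb. Runx1 is known for a distal promoter used in blood cells and a proximal one used more widely. Its first start, on chromosome 16 (92826149), had no peak in either library, while the start 128.8 kb downstream had 7.27 and 2.94 and the one at 130 kb had 1.5 and 1.15.

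**Figure D4:**
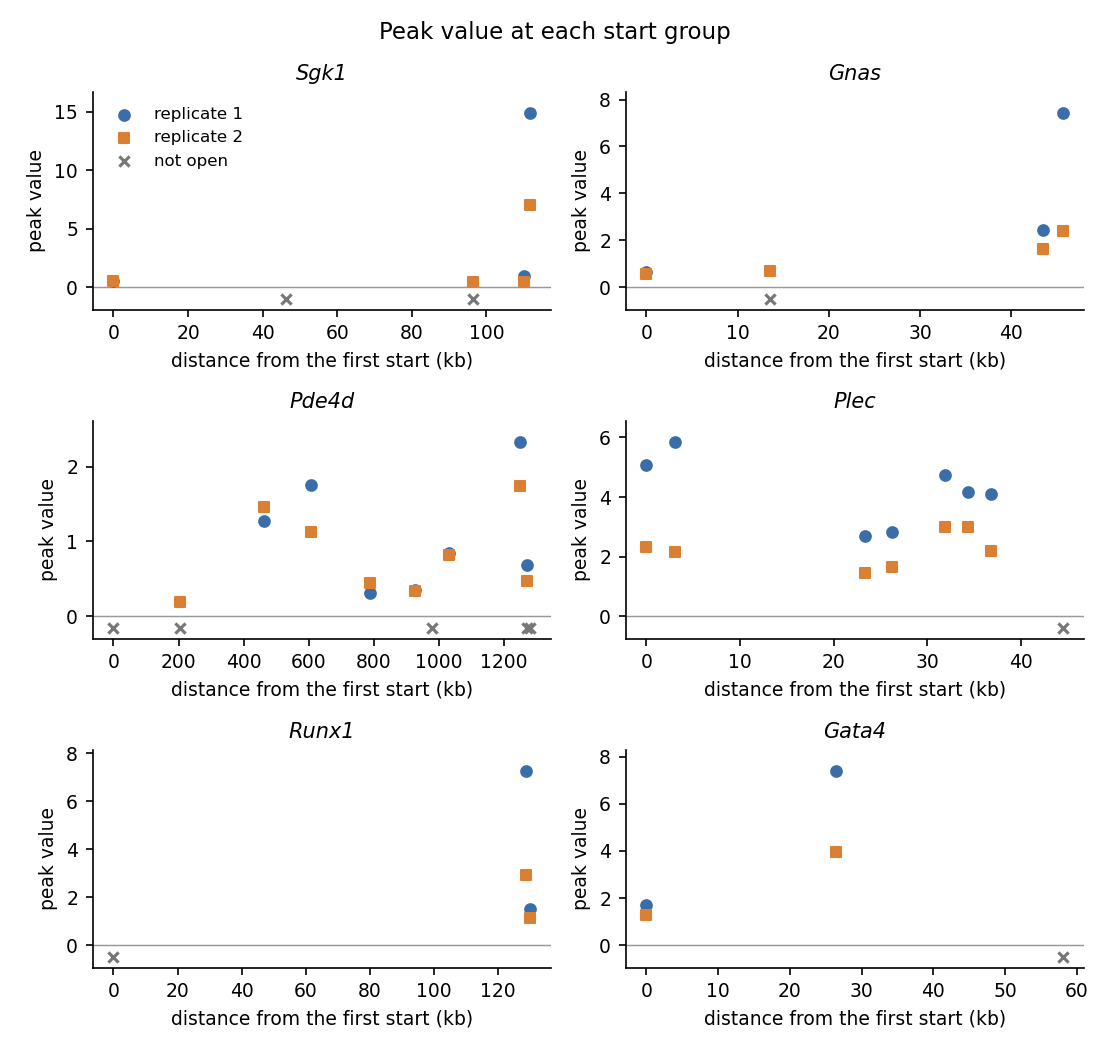
Peak value (vertical axis) at each start group against its distance from the first start in kb (horizontal axis) in replicate 1 and replicate 2, for Sgk1, Gnas, Pde4d, Plec, Runx1 and Gata4, with a cross for a group not open in both libraries. Sgk1, Gnas, Runx1 and Gata4 each have their highest peak at a later start, and Plec has peaks at 7 starts, from 2.69 to 5.85 in replicate 1, of which 2 share a peak in replicate 2.

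Genes of steroid synthesis and lipid metabolism comprised 12, of which 5 were open at the first start alone, 4 at several, 3 at a later one alone and 0 at none, with 9 of 30 later groups open (30.0%). Acsl1 (18 and 8.47), Acsl3 (16.6 and 7.32, with a start of Utp14b within 1 kb) and Srebf2 (15.7 and 7.57) were high at the first start alone. Acsl1 and Acsl3 activate fatty acids, and Srebf2 is the main regulator of cholesterol synthesis. Srebf1, its relative in fatty acid synthesis, was nearly even, with 9.59 and 4.84 at the first start and 11.6 and 4.88 at 10.1 kb (log2 0.19, SD 0.18, n = 2), a gap about as large as the difference between the libraries. Por, shown above, stood at the other end.

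Of the steroid genes looked up after their values were seen, 3 were open downstream alone. Cyp11a1, the side-chain cleavage enzyme that starts steroid synthesis, had no peak at its first start on chromosome 9 (58006411) and low ones, 1.06 and 0.779, at 8.26 kb. Hsd11b1, which regenerates active glucocorticoid, was open only at the group that begins at 20.5 kb, at 2.03 and 1.82. The peaks of that group lay over 500 bp from its most upstream start, at another of its starts. Lpin1, a phosphatidate phosphatase, was open only at 21.2 kb, at 8.81 and 4.48. Scarb1, the receptor that takes up cholesterol from high-density lipoprotein, was high at the first start, at 9.87 and 4.21, with 0.990 and 0.661 at 1.09 kb.

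Signalling through cAMP and kinases comprised 36 genes, 20 of them open at several groups, 12 at the first alone, 2 at a later one alone, and Akap6 and Pde4c at none, with 39 of 97 later groups open (40.2%). Sgk1, a kinase induced by serum, glucocorticoids and follicle-stimulating hormone, had 5 groups over 111.7 kb of chromosome 10. Its first start (21882184) had 0.495 and 0.497, the group at 110 kb had 0.964 and 0.478, and the last (21993890) had 14.9 and 6.99. The last start was the high one by a log2 ratio of 4.46 (SD 0.78, n = 2). Pde4d, a cAMP phosphodiesterase, had the most start groups of any of these genes, 12, of which 7 were open and all later, with values from 0.313 to 2.33. Akap13, an anchor of protein kinase A, had 14.8 and 6.59 at the first start and 0.593 and 0.622 at 154.5 kb. Akap1 (20.2 and 7.63) and Mapk8 (20.0 and 8.25) were open at the first start alone. Pik3r1, a regulatory subunit of phosphoinositide kinases, had 16.4 and 6.59 at the first start and 2.65 and 1.59 at 73.6 kb.

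Cytoskeleton and adhesion genes comprised 31, of which 19 were open at several groups, 9 at the first alone, Dmd at a later one alone, and Dlg2 and Mylk at none, with 46 of 125 later groups open (36.8%). Plec, the linker protein plectin, known for many alternative first exons, was open at 7 of 8 groups. Its first 2 starts had 5.07 and 2.32, then 5.85 and 2.16, and the 5 further open ones lay between 2.69 and 4.74 in replicate 1 and between 1.45 and 3.0 in replicate 2. No single Plec start stood out in both libraries. The open groups at 32.0 and 34.4 kb had one and the same peak in replicate 2, so that its 7 open groups rested on 7 peaks in replicate 1 and 6 in replicate 2. Macf1, which links actin to microtubules, was open at 4 of 11 groups, all later, highest at 272.1 kb with 9.09 and 3.06. Magi1, a scaffold of cell junctions, went the other way, with 12.2 and 5.40 at the first start and 0.352 and 0.412 at 370.2 kb. Utrn, a relative of dystrophin, was open at 3 of 7 groups, highest at the first with 8.88 and 4.70. Dmd, dystrophin, chosen after its values were seen, had no peak at its first start and 2.71 and 1.60 at the start 2100 kb downstream.

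Genes best known from neurons comprised 26, of which 9 were open at a later start alone, 9 at several, 5 at the first alone and 3 at none, with 21 of 73 later groups open (28.8%). Auts2 had 1.17 and 0.798 at its first start and 5.34 and 2.25 at the start 1003 kb downstream. Ptprd, a receptor phosphatase, was open only at 144.3 kb, at 4.89 and 2.35. Besides those of Fgfr2 and Auts2, wide spans between open starts were in Cntnap2 (2185 kb) and Lsamp (1548 kb), where the downstream start was low, at 0.410 and 0.504, and at 0.716 and 0.556. In Cntnap2 the log2 ratio of the downstream over the first start was -1.23, and 0.40 with basic transcripts or those of support level 1. Rbfox3, Grm5 and Shank3 had no open start.

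Imprinted genes and genes with an oocyte promoter comprised 10, of which 3 were open at a later start alone, 3 at several, 2 at the first alone, and Dnmt3l and Igf2 at none, with 8 of 29 later groups open (27.6%). At Gnas, on chromosome 2, the transcripts are known to begin, from upstream, at the promoter of Nesp, at that of the extra-large form, and last at that of the stimulatory G protein itself. The first group had 0.632 and 0.543, the group at 13.5 kb a peak in replicate 2 alone (0.700), the group at 43.5 kb 2.43 and 1.61, and the last, at 45.7 kb, 7.43 and 2.42. Values were thus highest at the most downstream start in both libraries. Plagl1 was open only at 30.3 kb, at 4.90 and 2.62, and Mest and Snrpn, chosen after their values were seen, only at 14.5 kb (2.64 and 1.74) and 135.1 kb (1.60 and 1.31). The open Snrpn start is shared with Snurf. Dnmt3a, a DNA methyltransferase, had 5.40 and 2.57 at the first start and 1.47 and 0.753 at 85.2 kb. At its first start the peaks of the 2 libraries did not overlap. Dicer1 and Ube3a were open at the first alone, at 16.9 and 9.08 and at 17.8 and 7.41.

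Textbook cases of alternative promoters comprised 24 genes, of which 12 were open at several groups, 7 at a later one alone, 4 at none and 1 at the first alone, with 25 of 63 later groups open (39.7%). That 1 gene was Cdkn2a, which encodes Arf from the upstream and Ink4a from the downstream promoter. It had 2.07 and 1.16 at the upstream start and a peak in replicate 1 alone (0.502) at 12.5 kb. Hk1, a hexokinase, had 8 groups and a single open one, at 39.4 kb, with 14.5 and 7.41. Acaca, the rate-limiting enzyme of fatty acid synthesis, had 4.82 and 2.44 at its first start, which is shared with Tada2a, and 15.4 and 5.76 at 50.2 kb. Sirt1, a deacetylase, had 0.528 and 0.550 at a first start shared with Dnajc12, and 9.56 and 3.72 at 42.7 kb. Tcf7l2 had 8.77 and 3.76 at the first start and 2.65 and 1.55 at 152.7 kb.

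**Figure D5:**
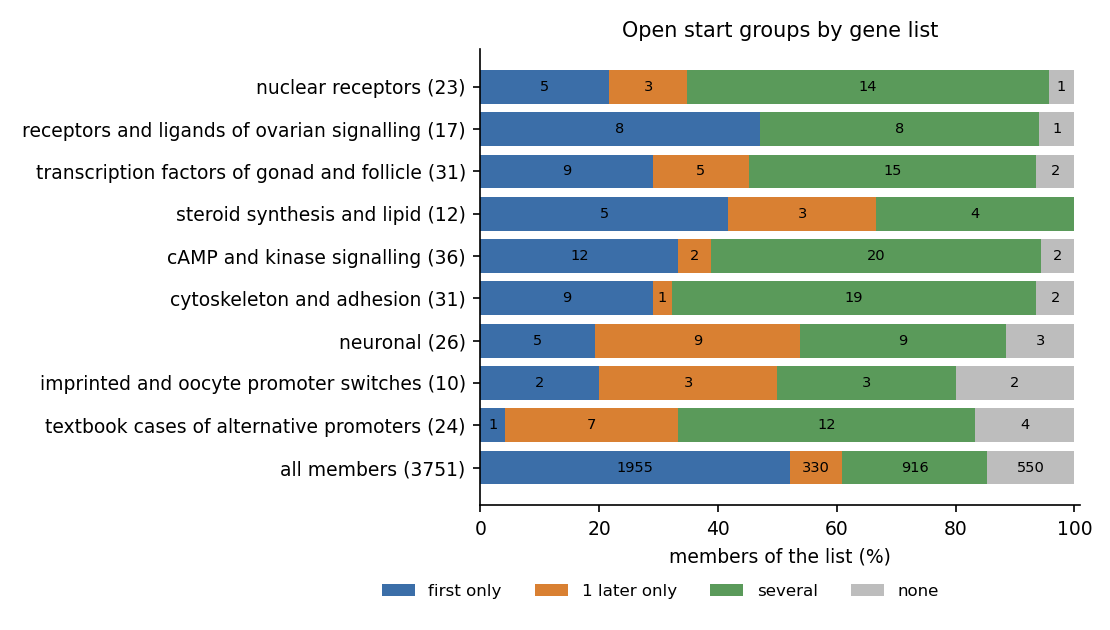
Share of the genes of each list (horizontal axis, %) open at the first start group only, at 1 later only, at several or at none, with the number of genes written in each block, and all 3751 genes at the bottom. Every list has a smaller share open at the first start alone than all genes together. This share moved with the number of start groups per gene, for which the lists were not matched.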

How the data were processed

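DNase-seq peaks, footprints and per-base false discovery rates of 2 ovary libraries were used as deposited, on mm10, which is GRCm38. Each library had its own peak calls, per the deposited file descriptions. Aligner, caller and version were not given in the sources used here. The signal value in column 7 of a peak was deposited by the authors, and its scaling and the depth behind it were not given in the sources used here. Its precision is therefore known from the spread of the 2 libraries alone. The q-values that the authors deposited list only bases under 0.05. The deposited footprint score is 0.01 in every line, so positions alone were used. The longer of the 2 peak lists of each library, with 109169 and 114462 peaks, gave the main results. Within a list, 4298 peaks over both libraries overlapped another, and the highest value was taken.

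Gene models were GENCODE M21, and 85 protein-coding genes without a protein-coding transcript were left out. Everything was computed in Python 3.11.15 with numpy 2.4.6 and pandas 2.3.3, and the classification was tested on simulated data. No test between groups was made. The first group is the most upstream, and the value of a start group is the highest of the peaks within 500 bp of any of its starts. The distance given for a group is that of its most upstream start. Sequences were read from the RefSeq copy of GRCm38.

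The genes and lists were chosen with earlier results of these data known. Named were, from each of 9 lists, up to 5 genes with the highest value at any start and up to 2, in alphabetical order, with none open. Over all genes the 5 highest of the first-only and of the later-only class, the 5 with most open groups, the 5 with the widest distance between open groups, and the 5 highest and 5 lowest ratios were added. Some items that the rule names are not reported here. Genes outside this rule are identified as picked with their values known. The alternatives tried were 1 library alone, a peak in either library, other peak lists, windows, merging distances and spreads, and stricter sets of transcripts. Leaving out readthrough transcripts, and counting peaks at the most upstream start of a group alone, were added after seeing the data.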

Additional observations from a re-analysis of the deposited data

How the results depend on the processing

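With 1 library alone the classes stayed within 1.5 times of their counts, the share of first groups open (74.5%) lay between 75.9 and 76.8%, that of later groups (23.4%) between 26 and 26.3%, and the median log2 ratio (-0.69) between -0.93 and -0.68. The shares of first and later groups open were 78.2 and 28.9% with a peak in either library, 70.6 and 18.4% with the shorter lists, 67.7 and 17.9% with peaks above the median, 72.9 and 21.1% within 250 bp, 76.4 and 26.4% within 1000 bp, 73.8 and 22.6% by peak centre, 73.7 and 26% merging within 500 bp, 75.2 and 23.0% within 2 kb, 70.2 and 22.9% for starts over 5 kb apart, 78.1 and 24.6% over 25 kb, 68.1 and 33.5% without incomplete 5′ ends, 69.4 and 32.7% for basic transcripts, 71.3 and 22.7% without shared starts, and, tried after seeing the data, 73.4 and 22.9% at the most upstream start of each group alone. With transcripts of support level 1 alone, 34.2% of later groups were open. The median ratio was -0.99 with a peak in either library, -0.35 with the shorter lists, -0.43 above the median value, -0.39 merging within 500 bp, -0.44 without incomplete ends and -0.47 for basic transcripts.

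Counts fell with the number of genes that met the rule. Over 25 kb (2302 genes) 1183 were open at the first alone, 190 at a later one alone and 256 at none. Over 5 kb (4939) 965 had none. Without incomplete ends (2405) 950 were open at the first alone. Basic transcripts (1924) gave 817, 187, 554 and 366 for first alone, later alone, several and none, and support level 1 (1260) gave 576, 111, 381 and 192. As shares, the first alone took 39.5% without incomplete ends, 42.5% for basic transcripts and 45.7% at support level 1, against 52.1%. It stayed the largest class in each of these settings, but it was not a majority. The sign of the log2 ratio reversed in Abr within 250 bp (-1.14), in Cntnap2 for basic transcripts (0.40) and support level 1 (0.40), in Cpeb3 merging within 2 kb (-1.36), for basic transcripts (-2.33) and at support level 1 (-2.33), and in Plec merging within 2 kb (-0.08) and at support level 1 (-0.05). The cause was not tested. Of 107 single genes followed, 103 kept their class without replicate 1, 97 without replicate 2, 94 with a peak in either library, 94 with the shorter lists and 90 with peaks above the median, and 65 of the 72 left did with basic transcripts. No paired analysis was possible because the libraries form 1 group with no contrast. Depth is not stated, so a start without a peak may be open below what the caller lists.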

Other observations

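A few starts went against the CpG trend, and they were chosen after their values were seen. Of 1378 start groups with a CpG ratio above 0.8, 7 had no peak in either library, of which 5 were first groups. They belong to Csmd2, Entpd4, Exosc3, Gm3448, Rap1gap2, Rbfox3 and Zfp541, with a start of Gm3435 within 1 kb of that of Gm3448. Whether reads can be placed uniquely at these starts was not tested, so a missing peak does not show a closed start. Rbfox3, a splicing factor used as a marker of mature neurons, had a ratio of 0.885 at its start 341.7 kb downstream. Exosc3, a subunit of the RNA exosome, had 4 footprints within 500 bp in replicate 1 and 0 in replicate 2, without a peak in either, and Dcaf10 starts within 1 kb of it.

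At the other end, 207 start groups had a CpG ratio of at most 0.2 around their most upstream start and their highest peak within 500 bp of it in both libraries. Of these, 43 were first groups, and 26 had a mean value above 2. Ltbp3, which binds latent TGF-beta, was the highest, with 5.26 and 2.78 at its first start and a ratio of 0.172. Among later starts, Zdhhc1, a protein palmitoyltransferase, had 4.72 and 3.06 at 12.5 kb with a ratio of 0.117, and Ninj2 had 4.08 and 2.78 at 100.5 kb with a ratio of 0.170.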
